A study of Mus musculus with 12 samples.

Results

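Fibroblast growth factors (FGFs) and their receptors were followed at the RNA level in cells that carry the T-box factor T (Brachyury). The set holds 10 genes, the ligands Fgf3, Fgf4, Fgf5, Fgf8, Fgf15, Fgf17 and Fgf18 and the receptors Fgfr1, Fgfr2 and Fgfr3, chosen by gene symbol among the 23421 rows of the deposited expression table. All 10 had a row. T-positive mouse cells on a 129S2/C57Bl6J background had been isolated by flow cytometry, and RNA was sequenced from 5 libraries in 4 groups. In vitro, 1 Day 4 library carried T_Y88A, an allele named for a single amino acid substitution in T, and 1 Day 4 library was wild type. From embryos, T_Y88A was represented by 1 library of Theiler stage 13 (TS13) and 1 of stage 12 (TS12), and wild type by 1 library labelled with both stages. The series' design text calls the wild type animals T_het, and the table column matched to the wild type embryos begins like those of the T_Y88A embryos, so every direction in embryos rests on the label. The Day 4 cells came from embryonic stem cells grown, per the labels' protocols, in 20 ng/mL BMP4 for 18 h and then in 40 ng/mL WNT3A with 40 ng/mL FGF8 protein until collection. The cultures of both genotypes thus received FGF8 protein, whatever RNA they made.

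FGFs are secreted proteins that bind receptor tyrosine kinases together with heparan sulfate on the cell surface and signal mainly through the RAS-ERK cascade. In the gastrulating mouse embryo Fgf8 and Fgf4 are made in the primitive streak, and Fgf8 and Fgfr1 are needed for mesoderm to leave it. FGF signalling and T are known to sustain each other in the posterior mesoderm of vertebrate embryos, a relation described best in Xenopus. Fgf8, Fgf17 and Fgf18 form one subfamily of ligands by sequence, and they prefer the mesenchymal splice forms of the receptors.

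The 250 bases upstream of the annotated start are shown for 4 ligands that the results turn on, Fgf18 for its difference between genotypes in embryos, Fgf5 for its difference between cultures and embryos, and the chromosome 7 neighbours Fgf3 and Fgf4 for their shared difference between stages. They are RefSeq sequences of build GRCm38.p6 (mm10), 5′ to 3′ on the gene's strand: chr11:33147401-33147650 (minus) for Fgf18, chr5:98253934-98254183 (plus) for Fgf5, chr7:144838362-144838611 (plus) for Fgf3 and chr7:144861136-144861385 (plus) for Fgf4. Capitals mark a match to the T-box core motif GGTGTGA, searched on both strands.
Fgf18: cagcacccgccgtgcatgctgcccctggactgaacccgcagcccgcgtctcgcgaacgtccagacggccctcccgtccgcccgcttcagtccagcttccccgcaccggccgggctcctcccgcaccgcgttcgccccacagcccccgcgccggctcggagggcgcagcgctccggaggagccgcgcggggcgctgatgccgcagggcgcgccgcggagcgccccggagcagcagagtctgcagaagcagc
Fgf5: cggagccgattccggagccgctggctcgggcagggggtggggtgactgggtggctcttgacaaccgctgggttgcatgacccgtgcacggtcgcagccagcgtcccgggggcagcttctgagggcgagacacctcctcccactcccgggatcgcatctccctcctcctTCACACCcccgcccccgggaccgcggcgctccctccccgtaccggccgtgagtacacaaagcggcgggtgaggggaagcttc
Fgf3: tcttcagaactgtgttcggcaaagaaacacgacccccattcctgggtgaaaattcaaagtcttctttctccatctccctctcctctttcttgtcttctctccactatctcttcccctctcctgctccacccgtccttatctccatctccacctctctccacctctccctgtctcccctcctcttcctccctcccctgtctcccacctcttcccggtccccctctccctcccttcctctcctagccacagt
Fgf4: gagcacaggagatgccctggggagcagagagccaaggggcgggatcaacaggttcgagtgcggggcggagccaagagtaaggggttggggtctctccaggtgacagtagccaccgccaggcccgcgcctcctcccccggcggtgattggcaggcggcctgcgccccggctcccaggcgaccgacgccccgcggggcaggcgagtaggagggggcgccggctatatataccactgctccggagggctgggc
The RefSeq table held windows for 6 of the 10 genes, 7 windows in all, as Fgfr3 had 2 of them. Fgf8, Fgf15, Fgf17 and Fgfr1 are named only. The Fgf18 window was 77.2% G or C with 37 CpG dinucleotides, the Fgf5 window 70.8% with 24, the Fgf4 window 71.2% with 21 and the Fgf3 window 55.2% with 4. The medians over all 32851 windows were 52.4% and 6, so the Fgf3 window was near the median and the windows of the other 3 ligands were rich in CpG. GGTGTGA or its reverse complement was found in 1 of the 7 windows, that of Fgf5, as TCACACC beginning 82 bases before the start, and in 3.33% of all windows. The TCF/LEF motif CTTTGAT, searched on both strands, and TATAAA, searched on the gene's strand, were in none of the 7 windows and in 3.21% and 7.59% of all windows. A match is a description of these letters only.

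The libraries differed beyond the FGF genes. Values are FPKM, fragments per kilobase of gene model scaled to the mapped fragments of the library. Depth relative to the wild type embryo library was read from the most common ratio between low values of the same genes. It was 0.493 in Day 4 T_Y88A, 1.04 in Day 4 wild type, 0.971 in T_Y88A TS13 embryos and 0.754 in T_Y88A TS12 embryos. Only 16.5% to 25.9% of the 112 to 193 low genes compared had that ratio, so these depths are rough. T itself was at 32.5 FPKM in Day 4 T_Y88A and 72.9 FPKM in Day 4 wild type cells, and at 26.99 and 69.8 FPKM in T_Y88A TS13 and TS12 embryos, against 65.9 FPKM in wild type embryos. Summed FPKM of 14 presomitic mesoderm markers were 46.2 and 69.9 in the T_Y88A embryo libraries and 219 in wild type, and 6 of the 9 that could be tested fell by limma (1.63% of all genes tested fell), with Mesp2 at 0 in the T_Y88A TS12 and wild type libraries and Ripply2 at 0 in T_Y88A TS13. Of 12 blood and endothelium markers, summing to 2221 and 1131 FPKM in T_Y88A embryos and 6325 FPKM in wild type embryos, 10 of the 11 tested fell. The sums of the 15 neural markers ran the other way, at 110 and 67.8 FPKM in T_Y88A embryos and 47.8 FPKM in wild type embryos. The markers themselves were mixed: of the 11 tested, 8 had positive and 3 negative log2 differences. Of these, 1, Sox2, rose by limma (0.763% of all genes tested rose). In the Day 4 libraries the 3 globin genes of the blood and endothelium list were at 0. In bulk samples such as these, fewer cells of a type and less RNA per cell cannot be told apart.

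**Figure D1:**
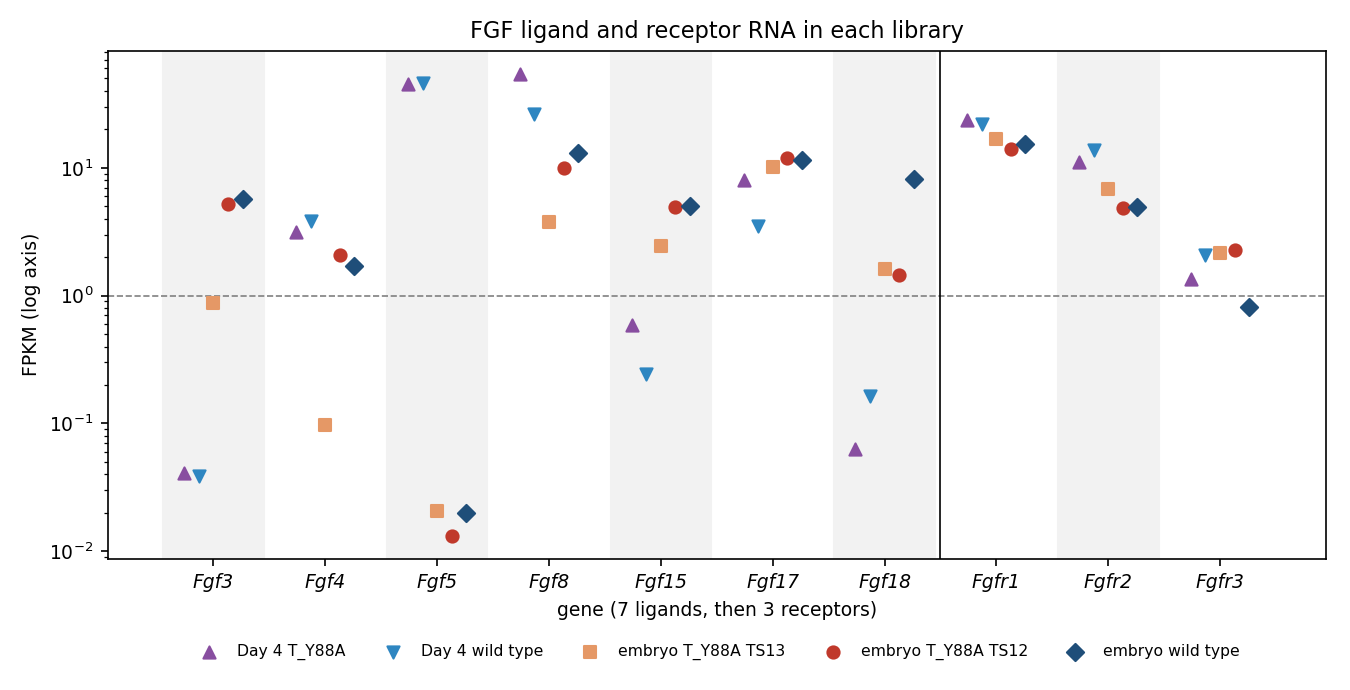
FPKM (log axis) of the 7 ligands and 3 receptors in the 5 libraries, 1 point per library, with a dashed line at 1 FPKM. Fgf5 was near 46 FPKM in both Day 4 libraries and near 0.02 FPKM in the 3 embryo libraries, and the wild type embryo library stood above both T_Y88A embryo libraries at Fgf18.

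In T_Y88A embryos Fgf18 RNA was lower than in wild type embryos, and it was the 1 gene of the set called in a fit whose wild type arm is 1 library. Fgf18, a ligand of the Fgf8 subfamily best known from bone and lung development, lies at chr11:33116970-33147400 on the minus strand, beginning where the CpG-rich window printed above ends. It had 1.61 FPKM in TS13 and 1.45 FPKM in TS12 T_Y88A embryos, against 8.22 FPKM in wild type embryos. The T_Y88A libraries lay close together and far below wild type, at 0.196 and 0.177 times its level. The log2 difference, T_Y88A minus wild type on the log2(FPKM + 1) scale, was -1.87 ± 0.25 (SE), with an adjusted p of 0.00241 by limma's moderated test over 11145 genes. That scale adds 1 FPKM and so understates the change of low genes. Across those genes 267 were called, 2.4%, of which 1.63% were lower and 0.763% higher. Of the 10 FGF genes, 9 had a mean over the 3 embryo libraries of 1 FPKM or more and were tested, and 1 of the 9 was called. The wild type arm of this fit is 1 library, which gives no spread of its own and is assumed to vary like the others, so every embryo p between genotypes rests on the spread between the 2 T_Y88A libraries, which differ in stage, and on the spread shared across genes. Nothing in the labels says that the libraries came from separate animals or cultures, so the p-values measure only the spread between these samples. With no filter on low values, the adjusted p of Fgf18 was 0.356.

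The fall of Fgf18 stood beside the lower presomitic, blood and endothelial markers and the higher neural sums given above, and their part in it was not tested. Over the 5 libraries the genes whose profile was nearest to that of Fgf18, out of 11592 searched, were Pcdh19, a protocadherin, and then Epb4.2 and Ank1, which encode parts of the red blood cell membrane skeleton. The distance, a Euclidean distance between centred log2(FPKM + 1) profiles, was 0.28, 0.33 and 0.37. Pcdh19 had 1.29 and 1.78 FPKM in T_Y88A embryos and 8.64 FPKM in wild type embryos. Epb4.2 had 1.48 and 0.854 FPKM in T_Y88A embryos and 6.93 FPKM in wild type embryos, and Ank1 1.27 and 0.722 FPKM in T_Y88A embryos and 6.12 FPKM in wild type embryos. All 3 were chosen by likeness to Fgf18 over these same libraries, so their low values in both T_Y88A embryo libraries follow from that choice.

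The other members of the Fgf8 subfamily did not pass the test in embryos. Fgf8, which gastrulation requires, had 3.78 and 9.99 FPKM in TS13 and TS12 T_Y88A embryos and 13.1 FPKM in wild type embryos. Both T_Y88A values lay below wild type, but the TS12 value was nearer to wild type than to TS13. The log2 difference of -0.96 ± 0.37 (SE, 95% interval -1.76 to -0.16) did not pass the test (limma, adjusted p = 0.213). Taken from 1 T_Y88A library at a time it was -1.56 with TS13 and -0.36 with TS12. Fgf17, known from midbrain and hindbrain patterning, had 10.1 and 11.9 FPKM in T_Y88A embryos, and wild type lay between them at 11.5 FPKM. Its log2 difference was -0.06 ± 0.21 (SE; limma, adjusted p = 0.931), with a 95% interval of -0.51 to 0.39. The 3 embryo values of Fgf17 thus lay close together.

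Fgf3, Fgf4 and Fgf15 lie near each other on chromosome 7. Fgf3 (chr7:144838612-144843348), which acts in ear and tail development, is 18.0 kb from Fgf4 (chr7:144861386-144865245), a streak and limb bud ligand, and Fgf4 is 31.3 kb from Fgf15 (chr7:144896532-144900953), the mouse counterpart of human FGF19. Fgf3 had 0.871 and 5.18 FPKM in TS13 and TS12 T_Y88A embryos and 5.71 FPKM in wild type embryos. Fgf4 had 0.0980 and 2.08 FPKM in T_Y88A embryos and 1.70 FPKM in wild type embryos. Fgf15 had 2.42 and 4.92 FPKM in T_Y88A embryos and 4.99 FPKM in wild type embryos. In each case the TS12 library was close to wild type and the TS13 library was lowest, and for Fgf4 wild type lay between the T_Y88A libraries. None of the 3 was called between genotypes, with log2 differences of -0.98 ± 0.50 for Fgf3, -0.56 ± 0.47 for Fgf4 and -0.41 ± 0.31 for Fgf15 (SE; limma, adjusted p = 0.357, 0.622 and 0.569). The value of Fgf15 could include fragments of the lncRNA gene Gm26793, which overlaps it, and that of Fgf17 fragments of Gm38605, since no source used here says whether strands were counted apart.

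Fgf5, the ligand of the early epiblast, was barely detected in any embryo library. It had 0.0206 and 0.0133 FPKM in T_Y88A embryos and 0.0200 FPKM in wild type embryos, under the filter, so genotypes were not compared.

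Of the receptors, Fgfr1 was the highest in every library. Fgfr1, the main FGF receptor of the streak and nascent mesoderm (chr8:25518759-25575718), had 16.8 and 14.1 FPKM in TS13 and TS12 T_Y88A embryos, and wild type lay between them at 15.4 FPKM. Its log2 difference was 0.00 ± 0.20 (SE; limma, adjusted p = 0.997), with a 95% interval of -0.43 to 0.43. The lncRNA genes Gm31288 and Gm16159 overlap it. Fgfr2 (chr7:130162451-130266808), whose loss in mice affects placenta and limbs, had 6.81 and 4.88 FPKM in T_Y88A embryos and 4.97 FPKM in wild type embryos. Wild type again lay between the T_Y88A libraries, and the log2 difference was 0.18 ± 0.25 (SE; limma, adjusted p = 0.776). Fgfr3 (chr5:33721724-33737068), a receptor known for restraining bone growth, had 2.16 and 2.29 FPKM in T_Y88A embryos and 0.819 FPKM in wild type embryos. Both T_Y88A values were above wild type and close together, and the log2 difference of 0.83 ± 0.27 (SE, 95% interval 0.23 to 1.42) did not pass the test (limma, adjusted p = 0.154). Fgfr3 was above the filter only through the T_Y88A libraries, which favoured a positive difference. Summed over the 3 receptors, RNA came to 25.8 and 21.3 FPKM in T_Y88A embryos and 21.2 FPKM in wild type embryos.

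**Figure D2:**
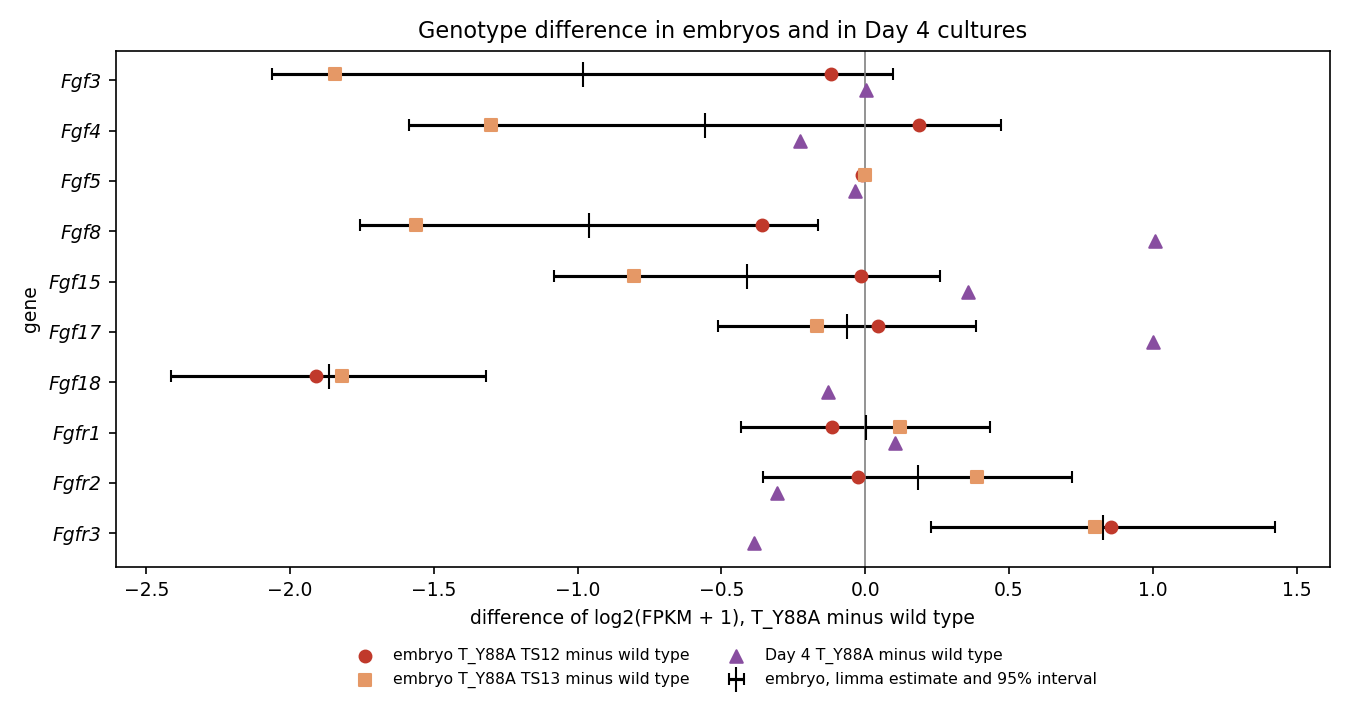
Differences of log2(FPKM + 1), T_Y88A minus wild type, for each gene; circles and squares are single T_Y88A embryo libraries, black bars the limma estimate with its 95% interval, and triangles the single Day 4 pair. The embryo intervals of Fgf18 (-2.41 to -1.32), Fgf8 (-1.76 to -0.16) and Fgfr3 (0.23 to 1.42) lie apart from 0. They are not adjusted for the number of genes tested, and only Fgf18 passed the adjusted test. For Fgf8 the Day 4 point at 1.01 is on the other side of 0 from both embryo points.

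For 5 of the 9 genes tested, both T_Y88A embryo libraries lay on one side of wild type, 4 lower (Fgf3, Fgf8, Fgf15 and Fgf18) and 1 higher (Fgfr3), while 75% of all genes tested did so, 38% lower and 37% higher. The direction of Fgfr3 was favoured by the filter, which it passed only through T_Y88A. A rule of size asked for at least a 2-fold difference from wild type in both T_Y88A libraries on the log2(FPKM + 1) scale. Fgf18 alone passed, at -1.82 in the library nearer to wild type, against 1.78% of genes, 1.43% lower and 0.35% higher. Without the added 1 FPKM, Fgfr3 was at 2.64 and 2.79 times wild type in TS13 and TS12, but on that scale it fell short. When the 5 libraries were fitted together for genotype, with system (culture or embryo) as a covariate, limma called 0 of the 10 FGF genes. It called 8 of 11602 genes (0.069%, with 0.0603% lower and 0.00862% higher). At an unadjusted p under 0.05 it found 1 of the 10, Fgf18, beside 1117 of the 11602 genes. In that fit Fgf18 had a log2 difference of -1.12 ± 0.37 (SE; limma, adjusted p = 0.442). Leaving out either Day 4 library gave Fgf18 a log2 difference of -1.87, the same as in the embryo fit. The 1 Day 4 library left then holds no genotype comparison, so this is no separate check.

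Other genes of the pathway were compared between genotypes in embryos in the same fit, in which 2.4% of all genes were called. Of 15 other FGF ligands, 3 were above the filter (Fgf9, Fgf10 and Fgf13), and 0 of the 3 were called by limma. Fgf9 had 2.94 and 2.90 FPKM in T_Y88A embryos and 4.51 FPKM in wild type embryos. Fgfrl1, an FGF receptor without a kinase domain, was the 1 gene above the filter among Fgfr4, Fgfrl1 and the co-receptors Kl and Klb, and it was not called at 11.5 and 8.94 FPKM in T_Y88A embryos and 9.51 FPKM in wild type embryos. Among 19 tested genes of heparan sulfate synthesis and its core proteins, 0 were called higher and 1 was called lower. That gene, Gpc3, a glypican, had 131 and 126 FPKM in T_Y88A embryos and 204 FPKM in wild type embryos, a log2 difference of -0.66 ± 0.15 (SE; limma, adjusted p = 0.0476), but that call was lost in 7 of the 9 alternatives that give a test, with adjusted p-values up to 0.356, and it too rests on 1 wild type library. None of 20 RAS-ERK signal transducers and none of 15 feedback and target genes of the pathway was called, and their median log2 differences were -0.03 and 0.04, beside -0.01 over all genes tested. Of the 15, 9 had positive and 6 negative log2 differences. Dusp6, a phosphatase that ERK signalling induces, was among the lower, with 34.6 and 32.3 FPKM in T_Y88A embryos and 44.0 FPKM in wild type embryos. Spry2 was among the higher, with 16.0 and 15.7 FPKM in T_Y88A embryos and 10.1 FPKM in wild type embryos.

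Between T_Y88A stages, 3 ligands were lower in TS13 by at least 2-fold on the log2(FPKM + 1) scale, and no receptor was. With 1 library per stage there is no test. Fgf3 was 1.72 lower on the log2(FPKM + 1) scale, Fgf4 1.49 lower and Fgf8 1.20 lower. That size was passed by 1.03% of 11057 genes in either direction, 0.588% downwards and 0.443% upwards. Fgf3 and Fgf4, at 0.871 and 0.0980 FPKM in TS13, were above the filter only through TS12, so it fixed their direction. Fgf15 followed at -0.79 and Fgf17 at -0.21, whereas Fgf18 differed by 0.09, Fgfr1 by 0.24, Fgfr2 by 0.41 and Fgfr3 by -0.06. The 3 neighbours on chromosome 7 were thus all lower in TS13, and the windows printed above for Fgf3 and Fgf4 differ in CpG content. T was also lower in TS13, by 1.34 on the same scale, and so were by at least 2-fold 4 of the other 12 streak and caudal genes above the filter, Wnt3a, Cdx1, Sp5 and Wnt8a. By the same rule 4 of 10 neural markers were higher in TS13 (Sox1, Pax3, Irx3 and Sox3) and 1 was lower (Fabp7). Fabp7, at 0.0325 FPKM in TS13, was above the filter only through TS12. Of 9 presomitic markers 2 were lower (Tbx6 and Aldh1a2), of 4 epiblast and pluripotency markers 1 was lower (Pou5f1), and of 11 blood and endothelium markers 1 was higher (Hba-x). The part of these markers, and of the difference in depth, in the stage values of the ligands was not tested. Wild type embryos were labelled with both stages together, so stage and genotype cannot be told apart for a gene on which the T_Y88A stages differ.

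At Day 4, T_Y88A cells had more Fgf8 RNA than wild type cells in the single pair of libraries. Fgf8 (chr19:45736491-45742941) was at 54.3 FPKM in T_Y88A cells and 26.5 FPKM in wild type cells, a ratio of 2.05 and a log2 difference of 1.01. Fgf17 was at 8.04 FPKM in T_Y88A cells and 3.52 FPKM in wild type cells, a ratio of 2.28. Its log2 difference was 0.999, just short of the rule of at least 2-fold, which is applied after adding 1 FPKM. Both members of the Fgf8 subfamily above the filter here thus had higher values in T_Y88A. Fgf5 was at 45.3 FPKM in T_Y88A and 46.5 FPKM in wild type cells, and Fgf4 at 3.14 FPKM in T_Y88A and 3.84 FPKM in wild type cells. Fgfr1 was at 23.7 FPKM in T_Y88A and 22.0 FPKM in wild type cells, Fgfr2 at 11.05 FPKM in T_Y88A and 13.9 FPKM in wild type cells, and Fgfr3 at 1.36 FPKM in T_Y88A and 2.09 FPKM in wild type cells. These 3 receptors and both other ligands lay within 2-fold. Of 7 members above the filter, 1 passed the 2-fold rule, against 1.94% of 11550 genes, 0.641% higher and 1.3% lower. These values have no replicate check. Fgf3, Fgf15 and Fgf18 were under the filter, at 0.0408, 0.594 and 0.0634 FPKM in T_Y88A and 0.0389, 0.244 and 0.163 FPKM in wild type cells. Of 17 feedback and target genes, 1 passed the rule, Etv4, an ETS factor that FGF signalling induces, at 4.97 FPKM in T_Y88A and 1.26 FPKM in wild type cells. The 7 notochord and node markers summed to 64.8 FPKM in T_Y88A and 134 FPKM in wild type cells, and 3 of the 6 above the filter were at least 2-fold lower. Nog, among these, was at 0.431 FPKM in T_Y88A and 12.1 FPKM in wild type cells. It was above the filter only through wild type, so the filter fixed its direction. The 10 epiblast and pluripotency markers summed to 1125 FPKM in T_Y88A and 751 FPKM in wild type cells, and 1 of the 9 above the filter was at least 2-fold lower. The part of either list in the Fgf8 and Fgf17 values was not tested.

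Whether genotype acted differently in culture and in embryos was asked with an interaction term in a limma fit of the 5 libraries with 1 residual degree of freedom. It called 0 of the 10 FGF genes and 17 of 11602 genes (0.147%, with 0.0603% lower and 0.0862% higher). At an unadjusted p under 0.05 it found 4 of the 10, Fgf8, Fgf17, Fgf18 and Fgfr3, beside 1476 of the 11602 genes. For Fgf8 the log2 difference was 1.97 ± 0.69 higher at Day 4 than in embryos (SE; limma, adjusted p = 0.363), and for Fgf17 it was 1.06 ± 0.32 higher (adjusted p = 0.313). Fgf18 gave 1.74 ± 0.33 (adjusted p = 0.205), but it was under 0.2 FPKM in both Day 4 libraries, where an added 1 FPKM leaves little room for a difference.

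Culture and embryo differed in most FGF genes. Day 4 cells had Fgf5, Fgf8, Fgfr1 and Fgfr2 at higher levels than embryos, and Fgf3, Fgf15, Fgf17 and Fgf18 at lower levels. In this comparison, limma with genotype as a covariate called 8 of the 10 FGF genes, beside 51.9% of 11602 genes, 25.9% higher and 26% lower. For 9 of the 10, all but Fgfr3, the 2 Day 4 libraries did not overlap the 3 embryo libraries, 5 of them higher at Day 4 and 4 lower. The same held for 68.8% of all genes, 34% higher and 34.8% lower, and the counts of FGF genes are to be read against these shares. With no filter on low values, limma gave Fgf3, Fgf8 and Fgf17 adjusted p-values of 0.0554, 0.0572 and 0.0839, and with robust variance estimates Fgf8 had 0.0832.

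**Figure D3:**
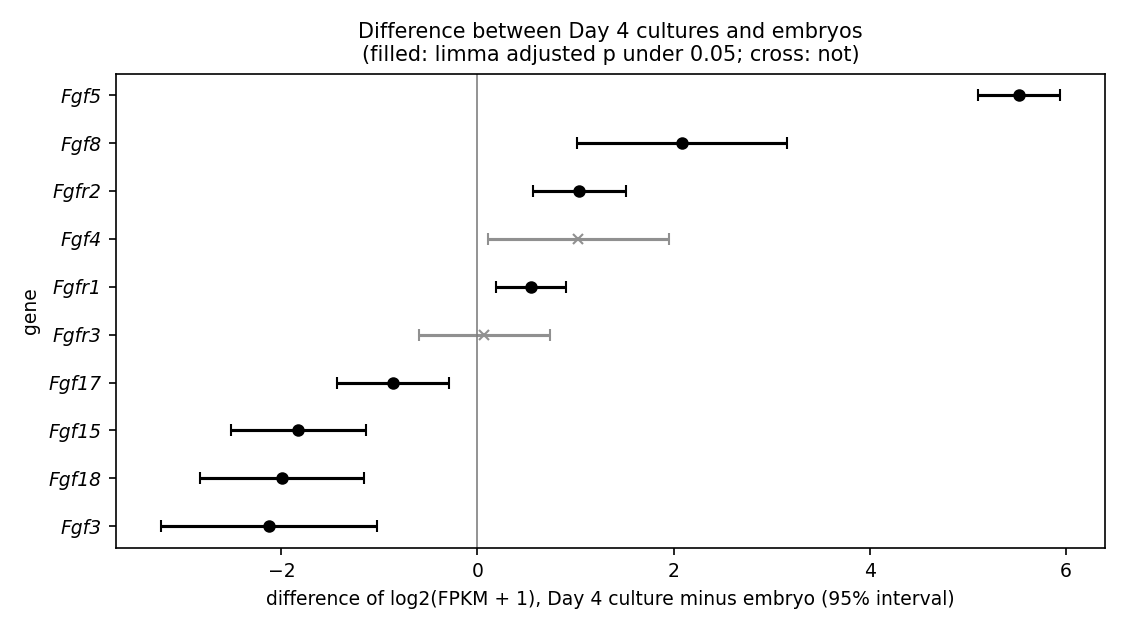
Difference of log2(FPKM + 1), Day 4 culture minus embryo, for each gene with its 95% interval from limma; filled points passed an adjusted p of 0.05 and crosses did not. Fgf5 stands far to the right at 5.52, and Fgf3, Fgf18 and Fgf15 lie at the left between -2.13 and -1.83.

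Fgf5 (chr5:98254184-98277033) made the largest difference of the set, 5.52 ± 0.18 on the log2(FPKM + 1) scale (SE; limma, adjusted p = 1.5e-06). In the Day 4 libraries it stood at 45.3 FPKM in T_Y88A and 46.5 FPKM in wild type cells, against at most 0.0206 FPKM in embryos. Those embryo values are so near the smallest steps of the table that no ratio is given. The promoter window of Fgf5 is the one with the T-box core letters printed above. Other epiblast genes moved the same way: all 9 tested of the epiblast and pluripotency list rose, beside 25.9% of all genes tested. That list summed to 1125 and 751 FPKM at Day 4 in T_Y88A and wild type cells, against 41.4 and 105 FPKM in TS13 and TS12 T_Y88A embryos and 71.9 FPKM in wild type embryos. Of the 9, Tdgf1, Utf1, Otx2, Zfp42 and Esrrb were at most 0.362 FPKM in embryos. They, like Fgf5 itself, were above the filter only through Day 4, so it fixed their direction. The part of this list in the Fgf5 difference was not tested. The 2 genes nearest in profile to Fgf5 were Ltb, a cytokine of the tumour necrosis factor family, and Enpp2, which makes lysophosphatidic acid, at distances of 0.34 and 0.37.

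Fgf8 was 2.09 ± 0.46 higher at Day 4 (SE; limma, adjusted p = 0.00625), with Day 4 values of 54.3 and 26.5 FPKM against embryo values between 3.78 and 13.1 FPKM. Without the Day 4 T_Y88A library the difference was 0.96 and the adjusted p 0.185, so the call rested on that library. Kifc2, a kinesin, and Foxh1, a partner of SMAD proteins in Nodal signalling, were among the 3 genes nearest to Fgf8 in profile, at distances of 0.46 and 0.58. Fgf4 was at 3.14 and 3.84 FPKM at Day 4 against 0.0980, 2.08 and 1.70 FPKM in embryos, and its difference of 1.03 ± 0.40 did not pass the test (SE; limma, adjusted p = 0.0604). It did pass without the T_Y88A TS12 library, at 1.38 (limma, adjusted p = 0.00424).

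The ligands with lower RNA at Day 4 included all that were under 1 FPKM there. These, Fgf3, Fgf15 and Fgf18, were above the filter only through embryos, so it fixed their direction. Fgf3 was 2.13 ± 0.48 lower (SE; limma, adjusted p = 0.00651), at about 0.04 FPKM in both Day 4 libraries against 0.871 to 5.71 FPKM in embryos. Fgf15 fell by 1.83 on the log2 scale (SE 0.30; limma, adjusted p = 0.00144), with 0.594 and 0.244 FPKM at Day 4 against 2.42 to 4.99 FPKM in embryos. Fgf18 fell by 1.99 (SE 0.37; limma, adjusted p = 0.00250), and its lowest embryo value was 8.87 times its highest Day 4 value. Fgf17 fell by 0.86 (SE 0.25; limma, adjusted p = 0.0204), with Day 4 values of 8.04 and 3.52 FPKM against 10.1 to 11.9 FPKM in embryos. Without the wild type embryo library the adjusted p was 0.0831 for Fgf3 and 0.155 for Fgf17, and without the Day 4 wild type library it was 0.0522 and 0.141. So Fgf4, on the same stretch of chromosome 7, was at its highest in the cultures, where its neighbours Fgf3 and Fgf15 were at their lowest. Presomitic markers summed to 21.0 and 24.1 FPKM at Day 4 against 46.2 to 219 FPKM in embryos. Of the 9 tested, 8 fell, beside 26% of all genes tested. Some, such as Hes7 and Msgn1 with at most 0.409 FPKM at Day 4, were above the filter only through embryos. The part of these markers in the ligands' differences was not tested.

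Of the receptors, 2 of the 3 rose at Day 4. Fgfr2 was 1.04 ± 0.21 higher at Day 4 (SE; limma, adjusted p = 0.00374), with 11.05 and 13.9 FPKM against 4.88 to 6.81 FPKM in embryos. Fgfr1 was 0.55 ± 0.15 higher (SE; limma, adjusted p = 0.0181), with 23.7 and 22.0 FPKM against 14.1 to 16.8 FPKM. The call for Fgfr1 was lost without the T_Y88A TS12 library (adjusted p = 0.0735) and without the Day 4 T_Y88A library (adjusted p = 0.127). Fgfr3 differed by 0.07 ± 0.29 (SE; limma, adjusted p = 0.854, 95% interval -0.60 to 0.74), and its Day 4 and embryo values overlapped.

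The make-up of the ligand RNA also differed between culture and embryo. The 7 ligands summed to 111.5 and 80.8 FPKM in T_Y88A and wild type Day 4 cells, to 18.9 and 35.5 FPKM in TS13 and TS12 T_Y88A embryos and to 45.3 FPKM in wild type embryos. At Day 4, Fgf5 made up 40.6% of the sum in T_Y88A and 57.5% in wild type cells, and Fgf8 made up 48.7% in T_Y88A and 32.8% in wild type cells. In embryos Fgf5 was at most 0.109%, and Fgf17 led the T_Y88A libraries with 53.5% in TS13 and 33.5% in TS12, whereas Fgf8 led in wild type with 29.0%. Fgf18 held 8.50% and 4.08% of the sum in TS13 and TS12 T_Y88A embryos and 18.2% in wild type embryos. The 3 genes of the Fgf8 subfamily together held 56.0% and 37.4% of the sum in T_Y88A and wild type Day 4 cells, 82.0% and 65.7% in TS13 and TS12 T_Y88A embryos and 72.5% in wild type embryos. Fgfr1 held 57.9% to 72.6% of the receptor sum in the 5 libraries.

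**Figure D4:**
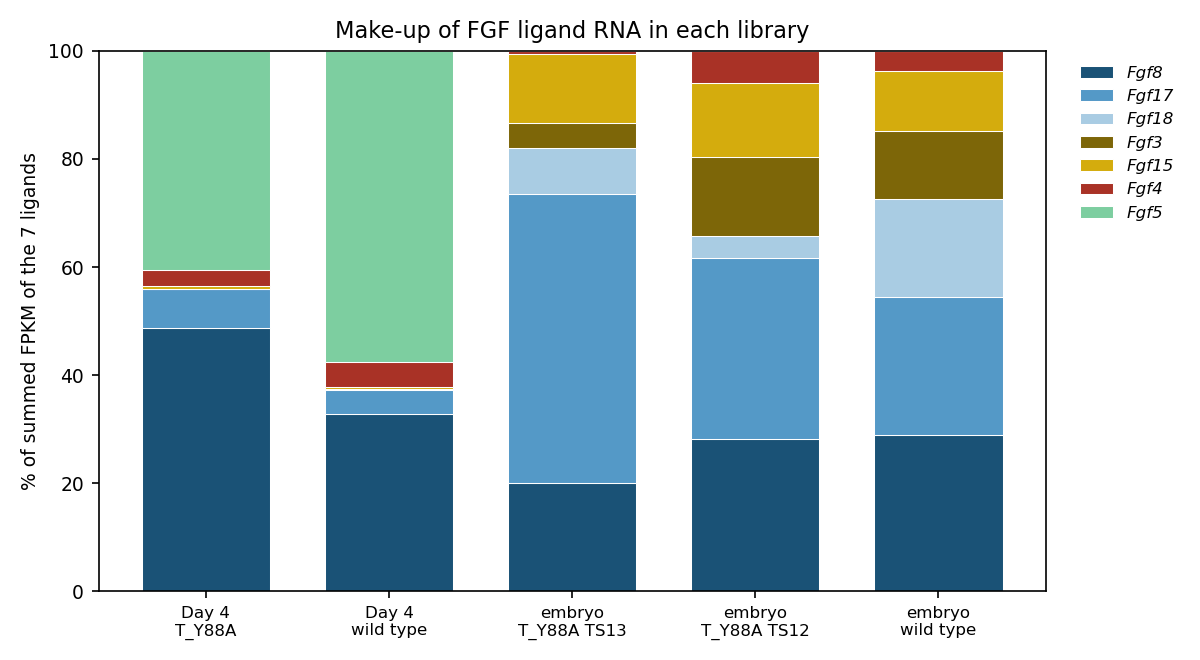
Share of each ligand, in % of the summed FPKM of the 7 ligands, in each library (1 bar per library). Fgf5 and Fgf8 fill most of the Day 4 bars, while Fgf17, Fgf8, Fgf3 and Fgf15 fill most of the embryo bars, with Fgf18 at 18.2% in wild type embryos.

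Ordered by level, the genes at Day 4 ran from Fgf5 and Fgf8, whose ranges overlapped, through Fgfr1 at a mean of 22.8 FPKM, Fgfr2, Fgf17 and Fgf4, whose ranges also overlapped, and Fgfr3, to Fgf15, Fgf18 and Fgf3. In T_Y88A embryos Fgfr1 was highest with a mean of 15.5 ± 1.89 FPKM, and Fgf17 followed with 11.01 ± 1.26 FPKM (SD, n = 2). The next 5 genes, Fgf8, Fgfr2, Fgf15, Fgf3 and Fgfr3, each overlapped the neighbour below them or above them in range, Fgf18 overlapped Fgf4, and Fgf5 was last and apart. Fgf18 averaged 1.53 ± 0.11 FPKM there (SD, n = 2), while Fgf3 averaged 3.02 ± 3.05 FPKM (SD, n = 2), so the spread between the T_Y88A libraries was small for one and as large as the mean for the other.

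The same measure of likeness over the 5 libraries was applied to the remaining members. Fgf15 and Fgf3 shared both Kcnmb4, a subunit of a potassium channel, and Sv2b, a synaptic vesicle protein, among their 3 nearest genes, with Kcnmb4 at a distance of 0.22 from Fgf15 and 0.86 from Fgf3. Nepn, nephrocan, was the nearest gene to Fgf3 at 0.85. Kcnmb4 had 0.534 and 0.254 FPKM in T_Y88A and wild type Day 4 cells, 2.73 and 5.96 FPKM in TS13 and TS12 T_Y88A embryos and 5.12 FPKM in wild type embryos. It was chosen by likeness over these same libraries, so its low values in culture and in TS13 follow from that choice. The nearest gene was Gm20362 for Fgf4 (0.31), Tmem132a for Fgf17 (0.31), Hsd17b4, a peroxisomal enzyme, for Fgfr1 (0.06), Wrn, a DNA helicase, for Fgfr2 (0.13) and Trim23 for Fgfr3 (0.07). Distances shrink with the size of a gene's own differences, so those of the receptors are not comparable with those of the ligands.

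Pathway genes outside the set were compared between culture and embryo in the same way, and their counts are to be read against the 25.9% of all genes called higher and the 26% called lower. All 3 other ligands above the filter fell, Fgf9 by 1.95 ± 0.22, Fgf10 by 1.13 ± 0.24 and Fgf13, an intracellular FGF homologue that does not signal through the receptors, by 0.88 ± 0.26 (log2, SE; limma, adjusted p = 0.000251, 0.00524 and 0.0234). Fgf9 and Fgf10, at most 0.256 FPKM at Day 4, were above the filter only through embryos. Fgfrl1 fell too, with 3.32 and 2.72 FPKM at Day 4 against 8.94 to 11.5 FPKM in embryos (limma, adjusted p = 0.000489). Of 19 heparan sulfate genes, 3 rose (Hs6st1, Sdc4 and Sulf1) and 8 fell, and of 21 RAS-ERK transducers 6 rose and 7 fell. Of 17 feedback and target genes, 6 rose and 7 fell, and members of single families moved apart: Spry1 rose while Spry2 and Spry4, other inhibitors of receptor tyrosine kinase signalling, fell, and Etv1 and Etv5 rose while Etv4 fell. Dusp6 had 76.0 and 72.4 FPKM at Day 4 against 32.3 to 44.0 FPKM in embryos. The median differences of these 3 lists were -0.25, -0.17 and 0.07 on the log2 scale, beside -0.01 over all genes.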

How the data were processed

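RNA from flow-sorted T-positive cells was extracted from lysates and made into libraries with the low-input version of ScriptSeq v2 Complete, per the labels' protocols. The authors deposited 1 table of FPKM with 5 columns, matched to samples by name; 0 columns were left unused. Per the submitters' processing notes, TopHat2 2.0.8, Cufflinks 2.1.1 and bedtools 2.23.0 were among the tools and mm10 was the build; their roles and any counting by strand are not given in the sources used here. The 7 chromatin samples were not analysed here. Total counts are unknown, so depth is given relative to 1 library, from values under 0.06 FPKM.

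From the deposited FPKM, log2(FPKM + 1) was computed, genes with a mean under 1 FPKM and 789 small RNA symbols were left out, and limma 3.58.1 (R 4.3.3) was fitted over all remaining genes with a variance trend, with Benjamini-Hochberg adjustment. The threshold was an adjusted p of 0.05. The embryo fit had 1 residual degree of freedom and the joint fit 2, so each variance was largely shared across genes. Single-library pairs were described by a rule of at least 2-fold on the log2(FPKM + 1) scale. Nearest genes were the 3 at the smallest distance over the 5 libraries. All 10 members are named whatever their values, as are pathway genes that passed limma between genotypes; other pathway genes named are examples chosen after their values were seen. Each fit was also run on simulated libraries with independent noise drawn from that fit's own variances. Such a run cannot check the single wild type library, the stage difference or samples that are not independent. Alternatives changed the pseudocount, filter, scaling, variance model, small RNA genes and libraries used. Members and gene lists were chosen with earlier results of these data known. Coordinates and promoter windows are from RefSeq GRCm38.p6, counted from 1. Text and plots used Python 3.11.15, pandas 2.3.3 and matplotlib 3.10.9.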

Additional observations from a re-analysis of the deposited data

Results flagged for a closer look

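For 4 genes, both T_Y88A embryo libraries differed from wild type in one direction and the Day 4 pair in the other, which held for 35.5% of 11602 genes. The difference between the genotype effects, Day 4 minus embryo on the log2(FPKM + 1) scale, was tested with limma's interaction term and passed for none of the 4. It was 1.97 for Fgf8 (SE 0.69; limma, adjusted p = 0.363), where the genotype difference was 1.01 at Day 4 and -1.56 and -0.36 in TS13 and TS12 embryos. For Fgfr3 it was -1.21 (SE 0.33; limma, adjusted p = 0.288), from -0.39 at Day 4 and 0.80 and 0.85 in TS13 and TS12 embryos. For Fgf3 it was 0.98 (SE 0.98; limma, adjusted p = 0.707) and for Fgf15 0.77 (SE 0.53; limma, adjusted p = 0.593), but both genes were under 1 FPKM in the Day 4 libraries, and Fgf3 differed there by only 0.0027. In TS12 embryos Fgf15 differed from wild type by only -0.016.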

How the results depend on the processing

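No paired analysis was possible because the labels give the libraries no shared replicate numbers. In embryos 1 FGF gene was called between genotypes, Fgf18, and 0 with no filter; the count of all genes was 267, but 0 with no filter, where 2249 had an unadjusted p under 0.05, and 34 with quantile normalization. In the joint fit for genotype, 0 FGF genes were called, and all genes called were 8, but 2 at a pseudocount of 0.1 and 1 with no filter. Leaving out 1 Day 4 library gave Fgf18 its embryo difference again, -1.87, and is no separate check. Leaving out wild type or Day 4 libraries was chosen after seeing the data. Between culture and embryo 8 FGF genes were called, 5 with no filter and 5 to 8 without single libraries. The interaction called 0 FGF genes under every alternative tested, and 17 genes in all, but 1245 with no filter, 6 at a minimum mean of 0.5 FPKM, 10 with quantile normalization, 7 with no variance trend and 9 with small RNA genes kept. At Day 4, 1 FGF gene passed 2-fold, and 2 (Fgf8 and Fgf17) at pseudocounts of 0.1 and 0.5 and with median of ratios scaling; the count of all genes was 224, but 436 at 0.1. The rule of size in embryos gave 1, and 2 (Fgf18 and Fgfr3) at 0.1 and 0.5, with 198 genes in all, but 406 at 0.1. Between stages 3 FGF genes passed under every alternative tried, with 114 genes in all, but 264 at 0.1 and 173 at 0.5. No called value changed sign under any alternative run. Absolute depth is unknown, so how many fragments lie behind values under 1 FPKM cannot be said.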
